A study of Mus musculus with 5 samples.

Results

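The signal transducers and activators of transcription (STATs) examined here are 6 genes, Stat2, Stat3, Stat4, Stat5a, Stat5b and Stat6. They were taken by family name and by no measured value, and each has a row among the 32285 genes of the TDLN matrices and the 33696 genes of the MC38 matrices. STAT proteins wait in the cytoplasm until a cytokine receptor brings together Janus kinases (JAKs), which phosphorylate them, whereupon they pair, enter the nucleus and bind DNA. The family divides the work of cytokine signaling: STAT2 serves type I interferon, STAT3 IL-6 and IL-10, STAT4 IL-12, STAT5A and STAT5B IL-2 and IL-7, and STAT6 IL-4 and IL-13. An RNA level says nothing of phosphorylation, the step on which a JAK inhibitor acts.

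The data were scRNA-Seq counts of unique molecular identifiers (UMIs, each marking 1 captured RNA molecule) from 5 droplet reactions, 3 of TDLNs from mice bearing TRAMP-C2 (a mouse prostate cancer line) and 2 of MC38 tumors (a mouse colon carcinoma line). The mice were male C57BL/6J of 8 to 10 weeks. Antibodies, either isotype or CPI (anti-CTLA4 with anti–PD-1), were given on days 3, 6 and 9, vehicle or 20 mg/kg of the JAK1 inhibitor ABT-317 on day 12, and tissue was taken on day 15. This gives 4 treatments: isotype, CPI, isotype + ABT-317 and CPI + ABT-317. A reaction pools mice of all treatments, the deposited hashtag key gives a treatment for each hashtag antibody and names no mouse, and the sources do not say if separate mice went into each reaction, so p-values measure the spread between reactions, which may be technical.

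Gene UMIs ranged from 18055617 to 127052825 per TDLN reaction and were 435031691 and 377184807 in the MC38 reactions. Hashtag counts were 0 in all TDLN barcodes, so treatments were compared in MC38 tumors only. Barcodes were kept from 200 genes up to a limit of 2500 genes, with mitochondrial UMIs below 10%, which left 6518 to 62322 per TDLN reaction and 15219 and 9682 in MC38. Between 5.13% and 8.57% of the barcodes of the smaller reaction of a pair also occurred in the other. A barcode was put in a class when at least 3 of 8 marker genes of that class had a UMI, with a lead of at least 3 to 1 over the markers of every other class. No STAT gene is a marker. Doublets were not removed with a caller, but barcodes with markers of several classes were set aside as mixed.

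In MC38 tumors, 5 classes had at least 20 barcodes in each reaction: macrophage-like (4636 and 4605), a class gated on fibroblast markers (3594 and 1517), T-like (210 and 238), endothelial-like (48 and 39) and neutrophil-like (46 and 20). A further 34.9% and 24.7% of kept barcodes were in no class and 8.86% and 8.58% were mixed. No barcode entered the class gated on epithelial markers. The paper lists MC38 cells among the major populations of these tumors, and where they lie among the classes here was not tested. Of genes left out of the gate, a list of Lck, Skap1, Lat and Cd2 summed to 1413 and 1793 CPM (a gene's UMIs over all UMIs of the class, on the usual CPM scale) in T-like and to 8.33 and 6.69 CPM in macrophage-like cells. A list of Klrk1, Gzma, Prf1, Eomes and Nkg7, genes of NK cells that cytotoxic T cells also use, was as high in T-like cells (1394 and 1948 CPM) and stood at 2444 and 7060 CPM in the few NK-like barcodes, where the T cell list was 503 and 939 CPM. These lists thus do not separate T cells from NK cells in the T-like class. The fibroblast gate was less uniform. Its Col1a1 level was 23130 and 25960 CPM among barcodes with the CPI hashtag and 1040 and 803 CPM among those with the isotype hashtag, so it is called collagen-positive here and not fibroblast. T-like cells carried the CPI hashtag in 72.4% and 81.5% of cases, so class values with treatments together weight CPI most in these cells.

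The TDLN classes did not separate well. With 3 markers, 41.5%, 30.2% and 36.8% of barcodes were mixed, and the same T cell list stood at 1361, 1292 and 1465 CPM in B-like barcodes against 1647, 1772 and 1638 CPM in T-like ones. T-like and B-like barcodes were called different in 51 of 11986 genes, 16 of which were the gate's own markers. That fit leaves out the pairing of sums by reaction, and with the reaction as a block 1471 genes (12.3%) were called. A stricter gate, chosen after these values were seen, took at least 5 T cell markers and no B cell marker, or the reverse. It kept 269, 763 and 27 T-like and 493, 423 and 14 B-like barcodes, and the T cell list then reached 1966, 1997 and 1865 CPM in T-like and 870, 419 and 795 CPM in B-like barcodes. TDLN class values are given under both gates.

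On GRCm38 (GENCODE vM21), Stat4 (ENSMUSG00000062939) lies on chromosome 1 from 51987148 to 52107189, Stat6 (ENSMUSG00000002147) on chromosome 10 from 127642986 to 127660957 and Stat2 (ENSMUSG00000040033) on chromosome 10 from 128270559 to 128292849. The other 3 are neighbors on chromosome 11: Stat5b (ENSMUSG00000020919, 100780731 to 100850724), Stat5a (ENSMUSG00000004043, 100859351 to 100885169) and Stat3 (ENSMUSG00000004040, 100885098 to 100939540). Stat5a and Stat3 run toward each other on opposite strands and share 72 bases at their 3′ ends, while the reads came from the 5′ ends of transcripts. Stat5a and Stat5b are close copies, and how reads that match both were counted was not examined.

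RefSeq lists 9 promoter windows of 300 bases (250 before to 50 after a start, GRCm38.p6) for the 6 genes. They were searched on both strands for the STAT dimer site TTCNNNGAA, for its wider form with 4 free bases between TTC and GAA, and for an interferon-response repeat of TTTC, 2 free bases and TTTC again. Matches of different motifs could overlap. The first was in 0 of the 9 windows (8.3% of all 32851 promoters hold it), the second in 1 (6.95% of all) and the third in 2 (3.44% of all). The windows of Stat2 and Stat4 are printed because they hold these matches, in capitals, and because Stat4 has a pair of annotated starts. A match is a run of letters and not a shown binding site.

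Stat2, chr10:128270248-128270547, plus strand: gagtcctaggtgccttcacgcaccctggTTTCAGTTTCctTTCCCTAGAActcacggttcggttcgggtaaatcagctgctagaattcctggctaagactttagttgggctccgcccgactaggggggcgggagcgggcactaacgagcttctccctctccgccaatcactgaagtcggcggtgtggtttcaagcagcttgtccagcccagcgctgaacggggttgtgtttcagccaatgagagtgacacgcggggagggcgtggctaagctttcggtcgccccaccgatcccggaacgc
Stat4, chr1:51986898-51987197, plus strand: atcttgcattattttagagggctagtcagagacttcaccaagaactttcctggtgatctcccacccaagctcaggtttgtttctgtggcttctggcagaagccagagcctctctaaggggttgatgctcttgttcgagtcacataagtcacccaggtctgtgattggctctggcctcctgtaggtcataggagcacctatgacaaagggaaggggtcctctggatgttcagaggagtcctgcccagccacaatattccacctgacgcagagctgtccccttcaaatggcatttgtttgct
Stat4, chr1:52007990-52008289, plus strand: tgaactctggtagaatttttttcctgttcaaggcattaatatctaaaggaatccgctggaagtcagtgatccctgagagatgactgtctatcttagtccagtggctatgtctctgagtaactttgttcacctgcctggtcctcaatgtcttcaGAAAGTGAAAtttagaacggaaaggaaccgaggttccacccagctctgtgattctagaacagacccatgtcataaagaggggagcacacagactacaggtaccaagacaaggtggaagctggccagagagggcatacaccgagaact

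Stat4, which relays IL-12 and drives IFN-γ production, had the largest CPM ratios of T-like to macrophage-like and to collagen-positive cells among the members in MC38 tumors. It stood at 368 CPM (95% Poisson interval 305 to 441) and 385 CPM in T-like cells of reactions 1 and 2, at 21.2 and 19.6 CPM in macrophage-like cells and at 2.99 and 1.79 CPM in collagen-positive cells. T-like levels were thus 17.4 and 19.7 times those of macrophage-like cells, with no overlap between reactions. In the edgeR quasi-likelihood test of each class against the mean of the other 4, Stat4 was higher in T-like cells by 4.87 ± 0.283 (log2, SE, n = 2 reactions; adjusted p = 3.51e-12) and lower in collagen-positive cells (−4.00 ± 0.698, adjusted p = 8.86e-05). Among barcodes with the CPI hashtag alone, Stat4 was 345 and 389 CPM in T-like and 16.55 and 3.21 CPM in macrophage-like cells. It was 2.29 and 2.04 CPM in collagen-positive cells, so T-like cells were again above both within 1 treatment. The macrophage-like value of reaction 2 rests on 1 UMI, so no order against collagen-positive cells is shown there. Macrophage-like Stat4 was 5.76% and 5.09% of the T-like level where the T cell list was 0.59% and 0.373% of it. Intervals cover counting error only.

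With treatments together, Stat4 was also high in mregDC-like cells, a mature dendritic cell state gated on Ccr7, Fscn1, Ccl22 and similar genes. These were only 14 and 16 barcodes, too few for the test, with 34 and 40 Stat4 UMIs. Their level was 844 CPM (585 to 1180) and 788 CPM (563 to 1073), 2.29 and 2.05 times that of T-like cells of the same reaction. The first rests on the limit of 2500 genes: without it, 1 further barcode brought reaction 1 to 545 CPM (377 to 762), with an interval that overlaps that of T-like cells, and reaction 2 stayed at 788 CPM. With the CPI hashtag alone, mregDC-like Stat4 was 1111 CPM (574 to 1941) in reaction 1 and 350 CPM (168 to 644) in reaction 2, from 4 and 7 barcodes, against 345 and 389 CPM in T-like cells, so the order was not the same in both reactions. With isotype, mregDC-like Stat4 was 963 CPM (498 to 1682) and 1733 CPM (1086 to 2623), from 6 barcodes each. T-like cells with isotype were at 181 CPM (21.9 to 652) and 288 CPM, from 2 and 3 UMIs. The intervals of reaction 1 overlap, so no order is shown there. Within T-like cells, CD8 barcodes (96 and 112) held 418 and 420.0 Stat4 CPM and CD4 conventional barcodes (16 and 24) 371 and 419 CPM. Endothelial-like cells had 0 and 2 Stat4 UMIs, and 3 UMIs would be 22.9 and 26.8 CPM there.

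**Figure D1:**
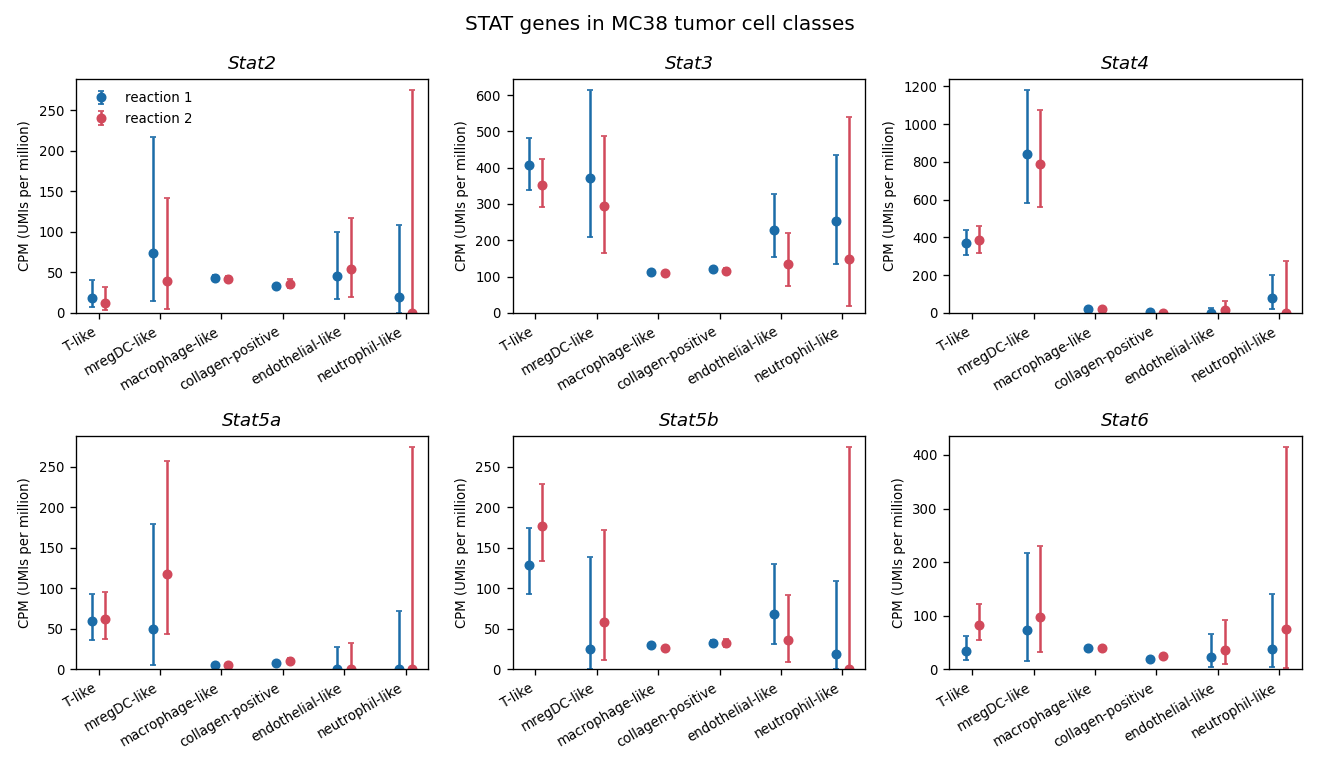
CPM (vertical axis, from 0) of each STAT gene in 6 MC38 cell classes (horizontal axis). Points are the 2 reactions and bars are exact Poisson 95% intervals; Stat4 was 844 and 788 CPM in mregDC-like, 368 and 385 CPM in T-like and 21.2 and 19.6 CPM in macrophage-like cells.

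Stat3, the factor of IL-6 and IL-10 signaling, had UMIs in all 5 tested classes. It was 406 and 354 CPM in T-like, 254 and 149 in neutrophil-like, 229 and 134 in endothelial-like, 120 and 115 in collagen-positive and 112 and 109 CPM in macrophage-like cells. T-like cells were above the endothelial-like, collagen-positive and macrophage-like cells in both reactions, and with the CPI hashtag alone Stat3 was 412 and 339 CPM in T-like, 99.3 and 125 in macrophage-like and 118 and 106 CPM in collagen-positive cells. The neutrophil-like value of reaction 2 rests on 2 UMIs (18.1 to 539 CPM), so no order against that class is shown there. Within T-like cells Stat3 was 853 and 748 CPM in CD4 conventional and 274 and 278 CPM in CD8 barcodes, from 23 and 25 UMIs in the former, with no test because 1 of these sums held under 20 barcodes. The test gave T-like cells 1.30 ± 0.234 (log2, adjusted p = 0.000181) and collagen-positive cells −0.68 ± 0.238 (adjusted p = 0.0318), the latter lost without a filter on low counts (adjusted p = 0.135).

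Stat5a and Stat5b, which carry IL-2 and IL-7 signals, were both higher in T-like than in macrophage-like and collagen-positive cells. Stat5a was 59.8 and 62.0 CPM in T-like, 5.68 and 5.58 in macrophage-like and 8.36 and 10.5 CPM in collagen-positive cells, from 19 and 20 UMIs in T-like cells. Endothelial-like and neutrophil-like cells had no Stat5a UMI. In the latter, 3 UMIs would be 58.6 and 224 CPM, so a T-like level was not detectable as different there. Stat5b was 129 and 177 CPM in T-like, 29.98 and 26.8 in macrophage-like and 33.1 and 32.9 CPM in collagen-positive cells. Endothelial-like Stat5b was 68.8 and 35.8 CPM from 9 and 4 UMIs, and neutrophil-like cells had 1 and 0 UMIs, too few for an order in reaction 2. T-like cells passed the test for Stat5b (2.35 ± 0.321 log2, adjusted p = 4.56e-06) and Stat5a (adjusted p = 1.10e-05), but the fitted Stat5a difference against classes at 0 has no fixed size.

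A fit of only the 3 classes with over 200 barcodes, added after the data were seen, gave Stat5a in T-like cells 2.70 ± 0.301 (log2, edgeR adjusted p = 0.000114) and Stat5b 1.96 ± 0.203 (adjusted p = 6.67e-05). In it Stat5a was lower in macrophage-like (−1.61, adjusted p = 0.000557) and collagen-positive cells (−1.09, adjusted p = 0.00499), where the fit of 5 classes had given uncalled positive values of 3.11 and 3.73. Of the genes tested in the 3-class fit, 20.4% were called for T-like, 31.8% for macrophage-like and 39.7% for collagen-positive cells. These shares are the background against which the members are read: 5 of 6 members were called in T-like, 4 of 6 in macrophage-like and 5 of 6 in collagen-positive cells. Each class was set against the mean of the others, so the 3 differences of a gene are tied. A lower call in 1 class can restate a higher level in another, and the 3 counts are not separate results.

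Stat2, the partner of interferon signaling that pairs with IRF9, was lowest in T-like cells among the 4 tested classes with over 1 UMI in both reactions. This is with treatments together. It was 45.9 and 53.7 CPM in endothelial-like (6 UMIs each), 43.6 and 42.3 in macrophage-like, 32.8 and 36.1 in collagen-positive and 18.9 and 12.4 CPM in T-like cells, the last from 6 and 4 UMIs. With the CPI hashtag alone, T-like Stat2 in reaction 1 was 28.4 CPM (10.4 to 61.8). That interval holds the macrophage-like value of 41.4 CPM, so no order within CPI is shown there. Macrophage-like cells were higher by 1.16 ± 0.325 (log2, adjusted p = 0.00835), a call lost with DESeq2 (adjusted p = 0.0546) and without TMM factors (0.118). T-like Stat2 did not pass the 5-class test (−1.07 ± 0.614, edgeR adjusted p = 0.237) and was lower in the 3-class fit added later (−1.67 ± 0.338, adjusted p = 0.00572). Stat6, the factor of IL-4 and IL-13 signaling, was 39.4 and 39.4 CPM in macrophage-like, 34.6 and 83.7 in T-like and 20.3 and 24.8 CPM in collagen-positive cells. It passed the 5-class test in none of the classes. In the 3-class fit added later it was lower in collagen-positive cells (−1.21 ± 0.264 log2, edgeR adjusted p = 0.00423) and not called in T-like or macrophage-like cells.

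Against the 5-class background, 4 of 6 members were higher in T-like cells where 21.7% of 7090 genes were called, 1 was higher in macrophage-like cells (29.4% called) and 2 were lower in collagen-positive cells (31.3% called). No member was called in endothelial-like (20.3% called) or neutrophil-like cells (5.71% called), whose sums were the smallest. Calls of a gene in several classes are tied here too, as each class was set against the mean of the others. The median log2 difference over all genes was 0.18 in T-like and −0.60 in neutrophil-like cells.

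The genes around the STATs were described from a list of kinases, receptor chains, inhibitors and targets. In T-like cells 9 of 19 tested receptor chains were higher and 5 lower, where 1039 of all 7090 genes were higher and 501 lower. Il2rb, a chain of the IL-2 and IL-15 receptors, was 290 and 351 CPM there and at most 2.02 CPM in macrophage-like cells, and Il12rb2, the IL-12 receptor chain upstream of STAT4, was 148 and 164 against 1.07 and 0.948 CPM. Among targets and partner, 7 of 16 were higher and 3 lower. The STAT4 targets Ifng (337 and 475 CPM) and Tbx21 (101 and 143 CPM) were at most 1.45 CPM in macrophage-like cells. Cish, a STAT5-induced inhibitor, was 120 and 211 CPM in T-like against 7.95 and 7.81 CPM in macrophage-like cells.

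In macrophage-like cells 12 of 19 receptor chains were higher and 0 lower, with a median log2 difference of 1.56, where 1672 of all 7090 genes were higher and 410 lower and the median was 0.32. Socs3, an inhibitor induced by STAT3, was 315 and 364 CPM there and 44.1 and 24.8 CPM in T-like cells, and was lower in T-like cells by the test (−1.93 ± 0.375 log2, edgeR adjusted p = 0.000434), where Stat3 was higher. Jak1, the target of ABT-317, was lower in macrophage-like cells (−1.11 ± 0.238 log2, edgeR adjusted p = 0.000874), at 109 and 91.6 CPM against 293 and 319.5 CPM in T-like cells. It was not called in T-like cells. Macrophage-like cells carried the isotype hashtag in 62.3% and 69.8% of cases, where T-like cells mostly carried that of CPI. Macrophage-like Jak1 was higher with CPI (given below), and the classes were not compared for Jak1 within 1 treatment. Csf3r on the list is also a gate marker of neutrophil-like cells.

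By likeness of log2(CPM + 1) over the 10 class-by-reaction sums, the genes closest to Stat4 were Spn (Pearson r = 0.987), Iqgap2 and Rnf157, and those closest to Stat5a were Itgb7 (r = 0.967), Ikzf2 and Irf4. Stat3 was closest to Hif1a (r = 0.928), Stat2 to Pkig (r = 0.998), Stat5b to Vgll4 (r = 0.989) and Stat6 to Capza1 (r = 0.946). The sums share reactions and depth, and 6475 genes were ranked, so these are descriptions only.

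T-like cells could not be compared by treatment. They held 8 and 8 isotype, 0 and 0 isotype + ABT-317 and 0 and 5 CPI + ABT-317 barcodes, under the minimum of 20. Treatment was compared first in macrophage-like cells, with 2888 and 3212 isotype, 116 and 130 CPI, 210 and 186 isotype + ABT-317 and 197 and 264 CPI + ABT-317 barcodes. No tested STAT gene was called in any of the comparisons, while 16.8% of 7467 genes were called for CPI against isotype. A missing call does not show that a level stayed the same. Stat3 was 105 and 107 CPM with isotype, 99.3 and 125 with CPI, 135 and 97.2 with isotype + ABT-317 and 152 and 106 CPM with CPI + ABT-317. The treatments overlapped. Stat2 was 45.0 and 39.6 CPM with isotype, 41.4 and 28.9 with CPI, 68.4 and 61.7 with isotype + ABT-317 and 36.5 and 41.9 CPM with CPI + ABT-317. Both isotype + ABT-317 values were above all others, but the difference from isotype, 0.58 ± 0.188 (log2), had an edgeR adjusted p of 0.774.

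Stat4 in these cells was 23.0 and 20.2 CPM with isotype and 16.6 and 3.21 CPM with CPI, the second from a single UMI (−1.24 ± 0.587 log2, adjusted p = 0.174). Stat6 was 28.9 to 47.7 CPM and Stat5b 16.4 to 32.8 CPM over the 8 sums. Stat5a did not pass the filter on low counts. The other comparisons called 8.89% of genes (CPI + ABT-317 against CPI), 0.0268% (isotype + ABT-317 against isotype), 2.44% (CPI + ABT-317 against isotype + ABT-317) and 3.75% (the interaction). Each called 0 of 5 members.

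**Figure D2:**
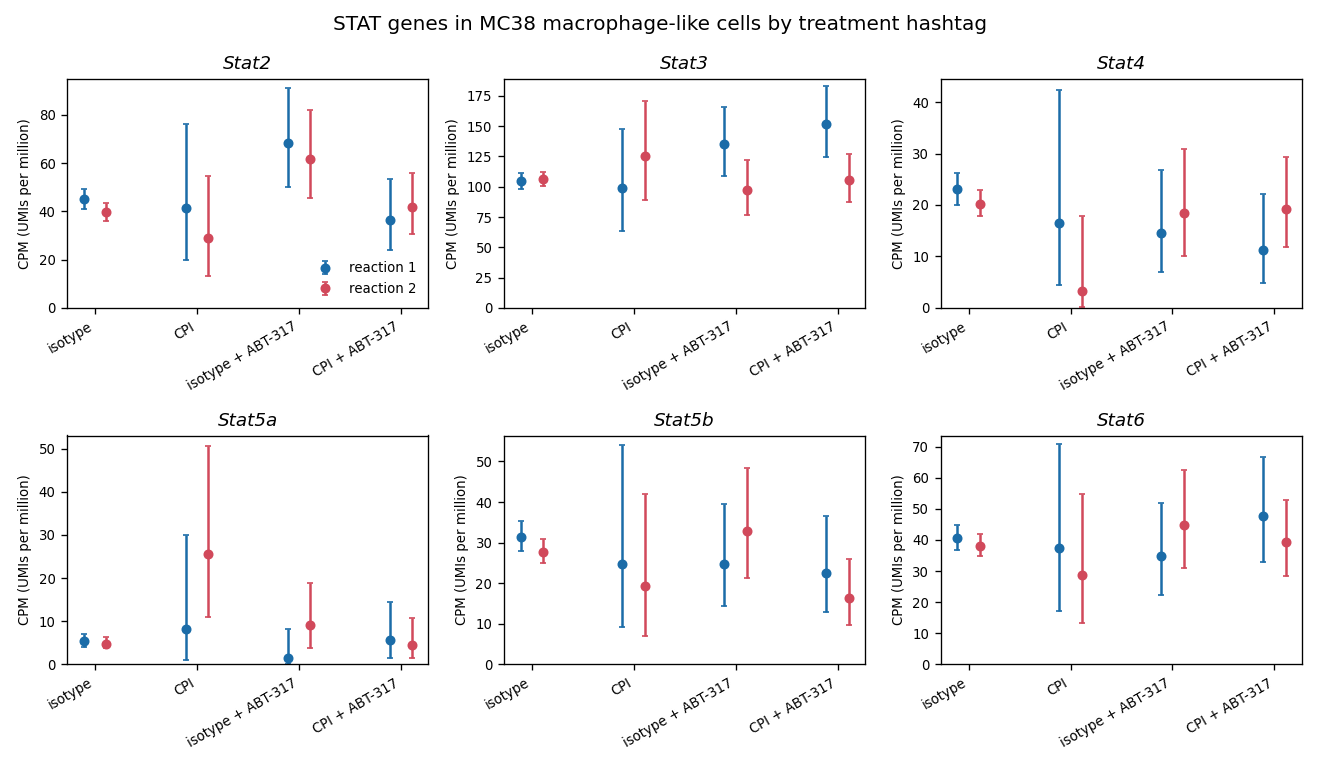
CPM of each STAT gene (vertical axis, from 0) in MC38 macrophage-like cells by treatment hashtag (horizontal axis). Points are the 2 reactions and bars are exact Poisson 95% intervals; Stat3 lay between 97.2 and 152 CPM in all 8 sums.

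Other JAK–STAT genes were called in macrophage-like cells. For CPI against isotype, 1 of 4 kinases was higher, 2 of 6 tested inhibitors were higher and 1 lower, 2 of 16 receptor chains were higher and 1 lower, and 3 of 13 targets were higher and 4 lower, where 739 of all 7467 genes were higher and 515 lower. Socs3 was among the lower ones, at 236 and 231 CPM with CPI and 332 and 371 CPM with isotype (−0.58 ± 0.182 log2, edgeR adjusted p = 0.038). With CPI, Socs1, an inhibitor induced by interferon, rose from 14.6 and 22.5 CPM to 53.8 and 99.4 CPM (2.08 ± 0.383 log2, edgeR adjusted p = 0.00147), and Jak1 rose from 102 and 90.7 CPM to 215 and 192 CPM (1.08 ± 0.192, adjusted p = 0.00117). With CPI + ABT-317, Jak1 was 119 and 78.4 CPM (−1.06 ± 0.214 against CPI, adjusted p = 0.00527) and Socs1 was 63.2 and 93.9 CPM, against 10.2 and 10.5 CPM with isotype + ABT-317 (3.02 ± 0.440, adjusted p = 0.00107). The comparisons with CPI share the CPI sums. Irf7, a STAT2 target, fell with CPI to 37.2 and 38.5 CPM from 84.2 and 115 CPM (−1.39 ± 0.353, adjusted p = 0.0133) and was 115 and 159 CPM with CPI + ABT-317 (1.89 ± 0.359 against CPI, adjusted p = 0.00356).

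Arg1, a STAT6 target, was 228 and 254 CPM with isotype, 447 and 516 with CPI and 839 and 901 CPM with CPI + ABT-317, and both steps passed the test (adjusted p = 0.00156 and 0.00869). Retnla, a further STAT6 target, was 20.7 and 157 CPM with CPI and at most 0.912 CPM elsewhere. The interaction was called for Socs3 alone among these lists (0.97 ± 0.246 log2, adjusted p = 0.0396). CPI macrophage-like barcodes were shallower (median 1848.5 and 2296 UMIs against 3052 and 3617.5 with isotype), their C1qa was 2156 and 2097 CPM against 3669 and 4734, their macrophage list (Lyz2, Aif1, Trem2, Cd14 and Cybb, none used by the gate) was 16510 and 20660 CPM against 7809 and 9135, and their T cell list was 16.55 and 54.5 CPM against 1.90 and 1.55. The part of these in the differences was not tested.

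In collagen-positive cells, 2 members passed the test. Stat6 was 27.2 and 33.9 CPM with CPI and 21.0 and 14.5 CPM with isotype (1.05 ± 0.280 log2, edgeR adjusted p = 0.00698). Stat5b was 20.2 and 13.1 CPM with CPI + ABT-317, from 6 and 2 UMIs, and 40.0 and 33.9 CPM with CPI (−1.44 ± 0.461, adjusted p = 0.0301). The groups did not overlap in either case, but 43.5% and 28.3% of 9449 genes were called in these comparisons, so 1 of 5 members in each was below the share of all genes. Both calls were lost with DESeq2 (adjusted p = 0.0775 for Stat6 and 0.104 for Stat5b), in edgeR without TMM factors (0.0515 and 0.109) and with the hashtag called by a lead of 1 log unit (0.457 and 0.374), and that of Stat5b also with a gate of 4 markers (0.246). Without the upper gene limit both held, and 13 of 55 member comparisons over the treatments were called instead of 2 of 50. Calls over all genes in collagen-positive cells rose as well. They went from 4106 to 8058 for CPI against isotype, from 2674 to 8330 for CPI + ABT-317 against CPI and from 964 to 5559 for the interaction. The rise to 13 is thus not read as a result about the members.

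Collagen moved with these results. Col1a1 was 23130 and 25960 CPM with CPI, 1040 and 803 with isotype, 882 and 1092 with isotype + ABT-317 and 179 and 7920 CPM with CPI + ABT-317, so collagen RNA per class UMI differed by hashtag within the gate. A list of stromal genes that the gate does not use (Sparc, Bgn, Fn1, Mmp2 and Fbln2) was 25060 and 30630 CPM with CPI and 3865 and 3949 CPM with isotype. The B cell list (Blk, Fcrla, Cr2, Ebf1 and Fcer2a) was 982 and 853 CPM with CPI against 165 and 166 CPM with isotype. With CPI, 2 and 1 of its 5 genes were at 0. Only 3 and 2 MC38 barcodes were B-like, and the genes of this list were not looked at singly. The list is thus not read as B cell content here. The macrophage list was 254 and 134 CPM with CPI against 428 and 232 CPM with isotype. With CPI + ABT-317 the stromal list was 2565 and 9461, the B cell list 148.3 and 228.5 and the macrophage list 161.8 and 437.5 CPM. Other cells in the gate and another collagen level in the same cells cannot be told apart here, and the part of these in the STAT differences was not tested. The interaction called 10.2% of genes and no member. Isotype + ABT-317 against isotype and CPI + ABT-317 against isotype + ABT-317 called 0% of genes by edgeR, with 258 and 458 genes at an unadjusted p under 0.05 and 0 by DESeq2. Stat4 did not pass the filter here, at 0 to 3.37 CPM.

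**Figure D3:**
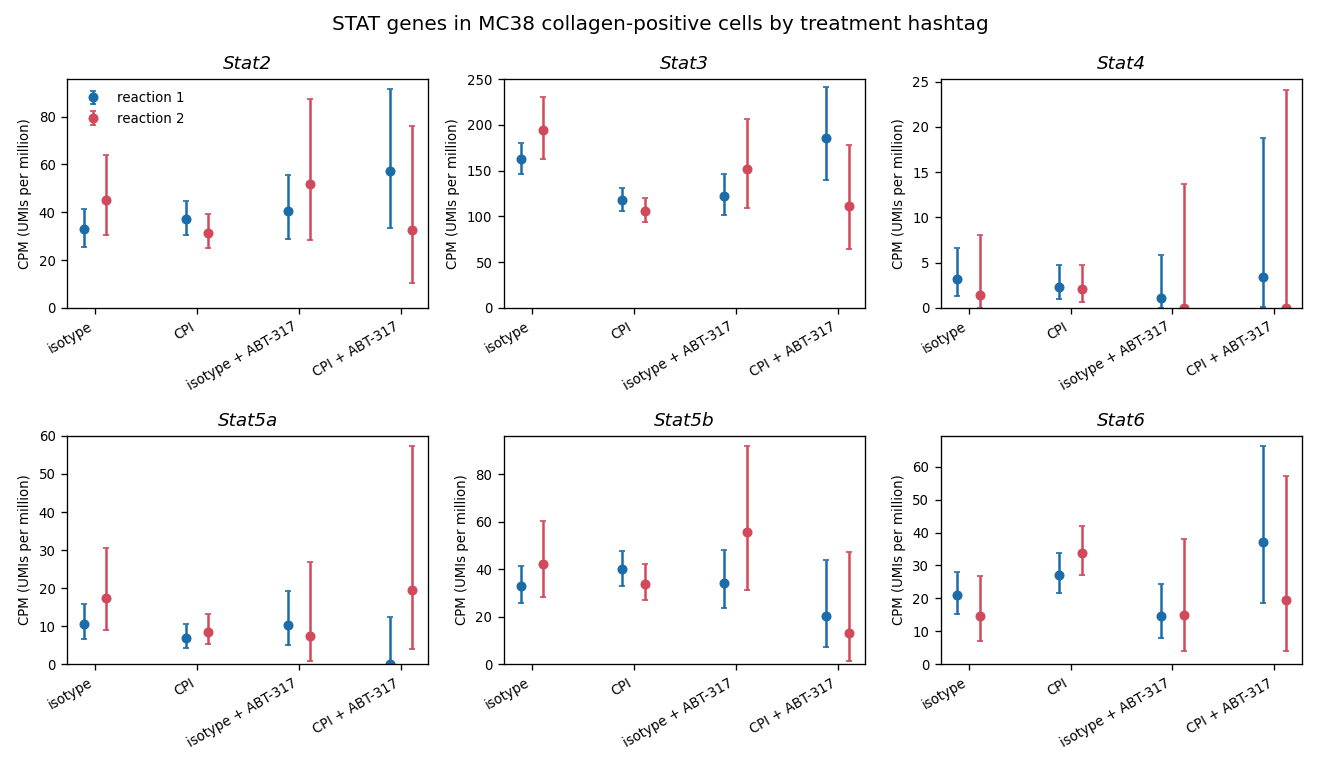
CPM of each STAT gene (vertical axis, from 0) in MC38 collagen-positive cells by treatment hashtag (horizontal axis). Points are the 2 reactions and bars are exact Poisson 95% intervals; Stat6 was 27.2 and 33.9 CPM with CPI against 21.0 and 14.5 CPM with isotype.

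The upper limit of 2500 genes removed collagen-positive barcodes unevenly. In reaction 1 it kept 884 of 949 with CPI, 582 of 2799 with isotype, 198 of 1437 with isotype + ABT-317 and 60 of 926 with CPI + ABT-317, where it kept 116 of 116 macrophage-like barcodes with CPI, 2888 of 2991 with isotype, 210 of 216 with isotype + ABT-317 and 197 of 204 with CPI + ABT-317. Collagen-positive barcodes above the limit had a lower CPM of every member, with Stat3 at 61.7 and 55.7 CPM and Stat5b at 18.5 and 14.8 CPM. They also held more UMIs in all, with a median of 17767 and 23262 against 3477.5 and 3435 below the limit. CPM is a share of all UMIs, so a lower CPM need not mean fewer UMIs per barcode. Member UMIs per barcode were not compared. Hashtags were also unevenly clear, the CPI hashtag having mean counts of 17.7 and 54.7 in its lower and upper component in reaction 1 against 40.3 and 211 for isotype.

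In TDLNs, with treatments together, T-like and B-like barcodes of the 3-marker gate held nearly the same STAT levels. Stat4 was 364, 316 and 347 CPM in T-like and 424, 392 and 336 CPM in B-like barcodes of reactions 1 to 3. Stat5b was 259, 265 and 241 CPM in T-like and 235, 224 and 198 CPM in B-like barcodes, with no overlap. No member passed the test, where 0.425% of genes did. With the reaction as a block, which pairs the sums of 1 reaction, 1471 genes (12.3%) were called, and Stat5b (0.25 log2, edgeR adjusted p = 0.0051) and Stat5a (0.23, adjusted p = 0.0445) were among them.

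Under the stricter gate 18.1% of 7638 genes were called and 3 of 6 members. T-like barcodes of this gate were deeper, with medians of 3152, 2658 and 2081 UMIs against 1682, 1526 and 1577 in B-like ones. The part of depth in the calls was not tested. The B-like sum of reaction 3 held 14 barcodes, under the minimum of 20 used elsewhere, so each call is also given on reactions 1 and 2 alone. Stat5a, at 102, 73.0 and 93.3 CPM in T-like and 44.1, 21.6 and 0 CPM in B-like barcodes, was higher in T-like ones by 1.48 ± 0.303 (log2, n = 3 reactions, edgeR adjusted p = 0.000461). The 0 of reaction 3 came from 22644 UMIs, where 3 UMIs would be 132.5 CPM, so a difference from the T-like level was not detectable there. Stat5b was higher by 1.18 ± 0.274 (adjusted p = 0.00184), with 281, 239 and 326 CPM against 145, 85.1 and 353 CPM. It overlapped only through reaction 3. Stat2 was lower in T-like barcodes (−1.09 ± 0.341, adjusted p = 0.0221), at 14.4, 14.8 and 15.5 CPM against 32.3, 33.0 and 88.3 CPM, with 1 and 2 UMIs in reaction 3. All 3 calls held without reaction 3 (n = 2 reactions, 18.3% of genes called), with edgeR differences of 1.46 for Stat5a (adjusted p = 0.0149), 1.27 for Stat5b (0.00865) and −1.04 for Stat2 (0.0358).

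In TDLNs Stat4 under the stricter gate was 272, 294 and 171 CPM in T-like and 432, 410.3 and 309 CPM in B-like barcodes (−0.50 ± 0.253 log2, edgeR adjusted p = 0.206). With the reaction as a block the difference was −0.48 and passed (adjusted p = 0.0363, with 24.7% of genes called), and without reaction 3 and the block it was −0.47 (adjusted p = 0.0882). B-like values were above T-like ones in each reaction. They were near the Stat4 level of the barcodes in no class (411, 374 and 328 CPM) of the same reactions. The mixed barcodes held 409, 373 and 314 CPM. The B-like barcodes still held the T cell list, at a lower level than T-like ones. Which cells the Stat4 UMIs of B-like barcodes came from was not tested. Stat3 (171 to 246 CPM, except 133 in B-like barcodes of reaction 3) and Stat6 (43.1 to 62.2 CPM, except 133 in the same sum) did not pass.

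**Figure D4:**
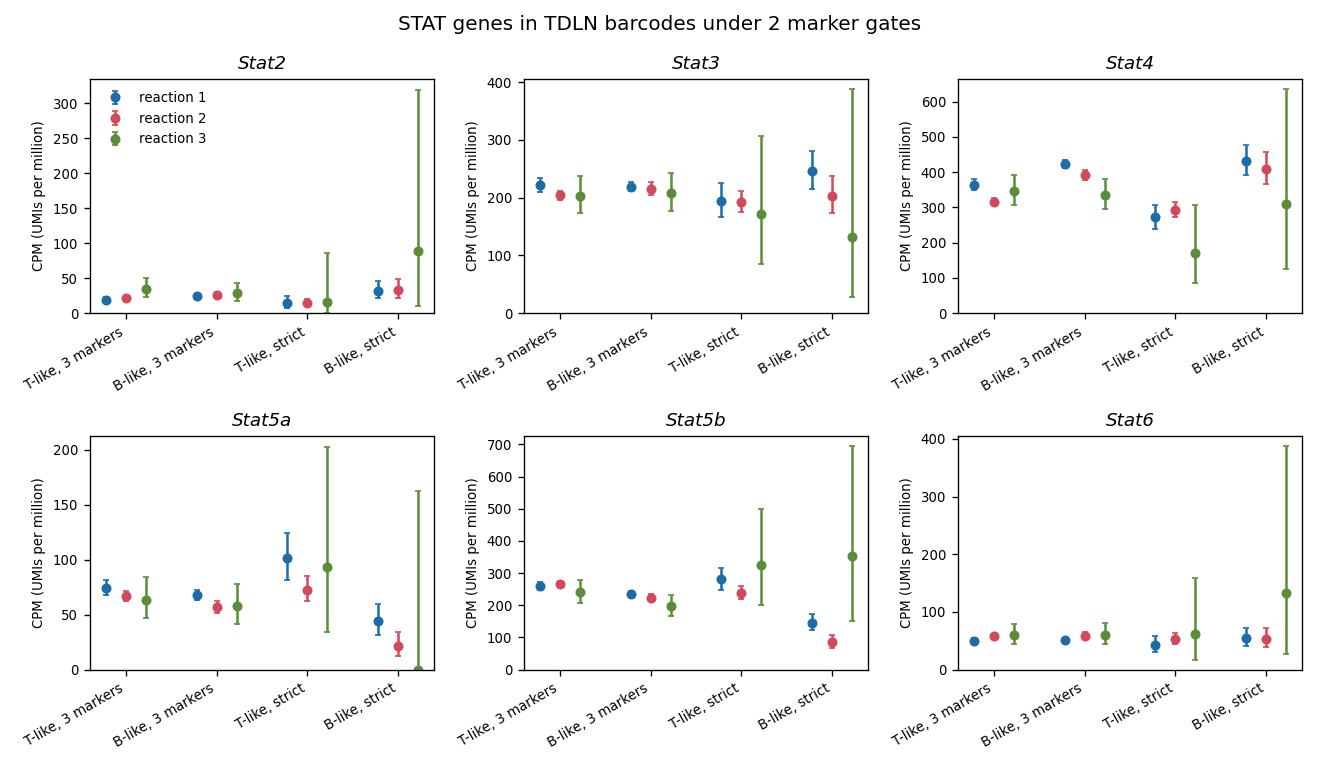
CPM of each STAT gene (vertical axis, from 0) in TDLN T-like and B-like barcodes under the gate of 3 markers and the stricter gate of 5 (horizontal axis). Points are the 3 reactions and bars are exact Poisson 95% intervals; Stat5a was 102, 73.0 and 93.3 CPM in strictly gated T-like and 44.1, 21.6 and 0 CPM in B-like barcodes.

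T cell subsets of TDLNs, split by Cd4, Cd8a, Cd8b1 and Foxp3 UMIs within the 3-marker gate, passed the test in no member. CD8 against CD4 conventional barcodes called 0.0789% of 6341 genes and Treg against CD4 conventional 0.189%, the latter on reactions 1 and 2 for Treg because reaction 3 held 14 such barcodes. Stat4 was 351, 324 and 353 CPM in CD8, 352, 312 and 406 in CD4 conventional and 406 and 270.3 CPM in Treg barcodes. Stat5b in CD4 conventional barcodes was 298, 294 and 116 CPM, the last from 21 barcodes. Under the stricter gate Stat4 was 294 and 317.5 CPM in CD8 (121 and 400 barcodes) and 147 and 208 CPM in CD4 conventional barcodes (25 and 53) of reactions 1 and 2, and reaction 3 held only 12 and 2 barcodes. The groups did not overlap in these, but the difference, 0.88 ± 0.318 (log2, with reaction 3 in the fit), had an edgeR adjusted p of 0.247.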

How the data were processed

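Gene and antibody UMI counts per barcode were deposited by the authors as raw counts without normalization. The TDLN file headers name Cell Ranger 7.1.0 and those of MC38 tumors 8.0.1, where the submitters' processing notes name 3.1.0 with GRCm38. Reactions are the replicates (3 TDLN, 2 MC38). Counts were summed per class and reaction, and in MC38 per treatment, which the deposited hashtag key gives. A hashtag was called from a fit of 2 components to its log counts. Sums were tested with edgeR 4.0.16 (TMM, filterByExpr, quasi-likelihood test, Benjamini-Hochberg over all genes tested, threshold 0.05) in R 4.3.3, with DESeq2 1.42.0 as an alternative, and both were tested on simulated data. Levels are CPM of sums, and the SE of a log2 difference is its size divided by the root of F. The 6 genes, the lists and the gate were chosen with earlier results of these data known. All 6 members, up to 4 genes per pathway list by adjusted p and the 3 genes most like each member were eligible to be named; further pathway genes were named after their values were seen. Sums of the same reaction come from 1 droplet run and are thus paired: in TDLNs their deviations correlated at 0.215 to 0.463 between T-like and B-like. A further STAT gene and 1 gene of the T cell check list are not reported here.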

Additional observations from a re-analysis of the deposited data

How the results depend on the processing

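Calls among members in MC38 classes (7 of 30 as reported) numbered 6 to 9 under the other settings, and 14 of 18 in the fit of 3 classes added after the data were seen. For MC38 treatments, 2 of 50 became 0 with DESeq2, 1 other without TMM factors, 13 without the upper gene limit, 1 with a gate of 4 markers, 0 with the hashtag that leads by 1 log unit, and 2 with a lead over background added later. Without the upper gene limit, calls over all genes in collagen-positive cells rose too, to 8058 for CPI against isotype and 8330 for CPI + ABT-317 against CPI. For TDLN classes, 0 of 6 became 2 with the replicate block, 3 with the stricter gate (3 without replicate 3) and 4 with the stricter gate and the block, the gate and its fits added later, and leaving out 1 reaction under the 3-marker gate gave 0 in each case. TDLN subsets stayed at 0. The replicate block changed no other member call. Without a replicate, MC38 sums allow no test.

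Signs turned for Stat5a in collagen-positive (−1.09) and macrophage-like cells (−1.61) in the 3-class fit, which leaves out classes at 0, and for Stat3 in collagen-positive cells without the upper limit (0.43 for CPI against isotype, −0.86 for CPI + ABT-317 against CPI, −0.60 for the interaction). The cause of the latter was not tested. Of 68 member comparisons called in no setting, 42 changed sign in some setting.

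Counts of all genes called moved by over 1.5 times in TDLNs (51 as reported, 15 without replicate 2 to 1887 with the stricter gate and the block; CD8 5, 3 to 44; Treg 12, 1 without replicate 2 to 66). The same held for collagen-positive treatments (CPI against isotype 4106, 2331 to 8058; CPI + ABT-317 against CPI 2674, 1236 to 8330; isotype + ABT-317 against isotype 0, up to 14; CPI + ABT-317 against isotype + ABT-317 0, up to 115; interaction 964, 117 to 5559), for the last 4 of these in macrophage-like cells (664, up to 1117; 2, 0 to 73; 182, 114 to 489; 280, up to 758) and for MC38 classes (collagen-positive 2220, to 5690; macrophage-like 2082, to 4558; neutrophil-like 405, to 735; T-like 1540, to 2928).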

Other observations

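Rarer MC38 classes held too few barcodes for a comparison. NK-like cells (5 and 9 barcodes) had 2 and 9 Stat4 UMIs, or 144 and 338 CPM with intervals of 17.4 to 519 and 155 to 642. cDC1-like cells (7 and 11 barcodes) had 2 and 3 Stat4 UMIs, or 63.5 and 60.5 CPM. The mregDC-like barcodes held 15 and 15 Stat3 UMIs, or 372 and 295 CPM.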
